A study of Mus musculus with 4 samples.

Results

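Hepatocyte growth factor (Hgf), its receptor Met, the related receptor Mst1r (RON), the protease matriptase (St14) and the 2 matriptase inhibitors Spint1 (HAI-1) and Spint2 (HAI-2) were followed through single cells of mouse liver. These 6 genes were chosen by name, out of 50766 genes in the deposited tables, as a ligand and receptor pair with the protease and inhibitors that act between them. All 6 had transcripts in the cells analysed, as did 31920 genes in all. Cells came from 4 libraries of liver labelled as biliary epithelial cells, all of genotype Sox9EGFP. Of these, 2 were made 7 days after sham surgery and 2 were made 7 days after bile duct ligation (BDL), which ties off the bile duct and causes cholestasis. The labels do not say that each library is a separate animal, so p-values measure the spread between these libraries, which may be technical. Age, sex and any sorting of the cells are not given in the sources used here. The question addressed here was which cells carried the ligand, which carried the receptors and the protease, and how the level of each differed between the BDL and sham libraries.

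HGF is a secreted growth factor that in liver comes mainly from mesenchymal cells, above all the stellate cells, and acts on epithelial cells through the receptor tyrosine kinase MET. It is released as an inactive precursor that serine proteases must cut before it can activate the receptor. Matriptase, anchored in the membrane of epithelial cells, is among those proteases. HAI-1 and HAI-2 are membrane-bound Kunitz-type inhibitors on the same cells. RON is the receptor for macrophage-stimulating protein (Mst1), a ligand made by hepatocytes that is activated in the same way.

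The promoters of the ligand, of its receptor and of the 2 inhibitors are shown because these genes were read in different cell classes, and because only 1 of the inhibitors passed the test described further on. Each line gives the 250 bases before the gene's start in RefSeq (build GRCm38.p6, an older build than the GRCm39 of the count tables), 5′ to 3′ on the gene's strand. Capitals mark matches to GGGCGG, the GC box, or to TGACTCA, an AP-1 site, on either strand.
Hgf, chr5:16553245-16553494, plus strand: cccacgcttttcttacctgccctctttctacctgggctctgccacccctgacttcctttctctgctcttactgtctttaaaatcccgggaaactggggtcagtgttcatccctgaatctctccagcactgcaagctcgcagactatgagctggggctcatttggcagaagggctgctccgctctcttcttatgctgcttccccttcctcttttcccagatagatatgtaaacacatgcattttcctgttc
Met, chr6:17463707-17463956, plus strand: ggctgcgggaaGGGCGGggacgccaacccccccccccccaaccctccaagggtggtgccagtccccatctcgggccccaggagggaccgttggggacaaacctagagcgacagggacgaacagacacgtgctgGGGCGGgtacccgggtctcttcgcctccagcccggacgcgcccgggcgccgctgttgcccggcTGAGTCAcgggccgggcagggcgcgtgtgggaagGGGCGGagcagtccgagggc
Spint1, chr2:119237110-119237359, plus strand: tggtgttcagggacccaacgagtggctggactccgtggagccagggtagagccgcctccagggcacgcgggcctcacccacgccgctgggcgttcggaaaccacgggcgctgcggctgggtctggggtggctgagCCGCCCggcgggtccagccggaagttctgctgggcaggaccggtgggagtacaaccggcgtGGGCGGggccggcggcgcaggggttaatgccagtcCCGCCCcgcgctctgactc
Spint2, chr7:29281978-29282227, minus strand: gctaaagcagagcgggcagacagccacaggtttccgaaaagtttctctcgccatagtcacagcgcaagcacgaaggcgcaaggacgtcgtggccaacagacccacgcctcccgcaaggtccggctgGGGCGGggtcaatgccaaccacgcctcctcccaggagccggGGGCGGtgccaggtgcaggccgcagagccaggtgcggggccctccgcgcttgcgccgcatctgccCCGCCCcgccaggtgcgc
The windows of Met, Spint1 and Spint2 held 3 GC boxes each and were rich in G and C (74.0%, 72.8% and 69.6%). The Hgf window held no GC box and had 50.8% G and C, near the median of 52.4% over 32851 promoter windows of the same length. A GC box stood in 32.7% of all windows, and the AP-1 letters, found once among the 4 windows shown, at Met, in 4.46%. Of the other motifs sought on both strands, none stood in the 4 windows. In all windows, the CCAAT box (its name gives its letters) had a share of 33.8%. The TATA box, searched as TATAAA, had a share of 12.4%, and a grainyhead-like site, searched as AACCGGTT, one of 0.116%. RefSeq promoters matched 5 of the 6 genes, with a second start listed for Hgf and for Mst1r. These matches are descriptions of letters and were not related to binding.

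The 4 libraries held 12211 cells, with 10024577 to 33809650 transcripts (unique molecular identifiers, UMIs) per library, and 12183 cells were analysed. Each cell table carries a group name of its own, which contradicts the sample label for sham replicate 2 and for BDL replicate 2. Libraries were grouped by their labels alone, and sham and BDL mean those labels throughout. For the 6 genes, values without these libraries or between the 2 libraries where both names match are given beside the main differences between the groups. A fit with 1 library left out keeps 1 library in a group, so its spread comes from the other group alone. Calls kept or lost in such fits are descriptions. No cell barcode was shared between libraries. Of 11 biliary epithelial clusters, 4 were mostly of cells labelled sham and 7 of cells labelled BDL, with at least 95.6% of each cluster's cells from 1 label.

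Clusters were named from marker lists, with the 6 genes and their pathway left out of the clustering. Cells like biliary epithelium (BEC-like) numbered 2608, 2582, 1963 and 3807 in sham replicates 1 and 2 and BDL replicates 1 and 2, the order used for every set of 4 values below. All 11 biliary markers had UMIs in the BEC-like cells of every library, with a summed level of 10579 to 12022 CPM (a gene's UMIs scaled to the class total in that library, as counts per 1e6). The label of biliary epithelium thus held for most cells but not for all. Mesenchymal-like cells numbered 188, 417, 71 and 132. The rest were 215 endothelial-like, 96 macrophage-like, 76 hepatocyte-like and 28 unnamed cells. Levels of different genes are not set against each other, since counts depend on gene length. A class is compared with another only as a description, since the classes came from the same cells. Intervals are exact Poisson 95% intervals and cover counting error only. A count of 0 is read as allowing up to 3 counts.

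Hgf was a mesenchymal transcript in every library. In mesenchymal-like cells its level was 767 CPM (interval 705 to 834), 814, 902 and 365 CPM, so that BDL replicate 2 was the lowest and BDL replicate 1 the highest. In BEC-like cells it was 1.03, 2.26, 0.274 and 0.470 CPM, from 10, 19, 4 and 15 UMIs. The mesenchymal level was 746, 360, 3291 and 777 times the BEC-like level. Mesenchymal-like cells made up 6.57%, 13.1%, 3.41% and 3.25% of cells but held 98.1%, 97.1%, 96.5% and 93.1% of each library's Hgf UMIs. Pooled over the libraries, endothelial-like cells came next, at 73.1 CPM. Per library they stood at 16.0, 75.7, 138 and 68.6 CPM from 1, 11, 8 and 9 UMIs, and their intervals overlapped one another. In sham replicate 1 the order was not resolved, since 1 UMI lies under the 3-count limit of 48.0 CPM. Macrophage-like cells had 0 Hgf UMIs in both sham libraries, which allows up to 49.6 and 53.4 CPM, and 63.4 and 26.1 CPM in the BDL libraries. Hepatocyte-like cells had none in any library, which over their 76 cells allows up to 6.66 CPM.

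The share of cells with a Hgf UMI showed the same order of the 2 main classes. After each cell was thinned to 1000 UMIs, 41.8%, 47.2%, 39.4% and 27.3% of mesenchymal-like cells had one, against 0.119%, 0.202%, 0% and 0.0525% of BEC-like cells. The 0 was 0 of 1963 cells, which allows a share of up to 0.153%. Between groups the mesenchymal share was 44.5% ± 3.83 (SD, n = 2) in sham and 33.4% ± 8.60 in BDL, with an exact two-sided permutation p of 0.33, the smallest that 2 libraries against 2 can give. Without thinning the difference turned to 7.79 points higher in BDL, and median depth per mesenchymal-like cell was 3243, 2274, 6294 and 7324.5 UMIs.

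**Figure D1:**
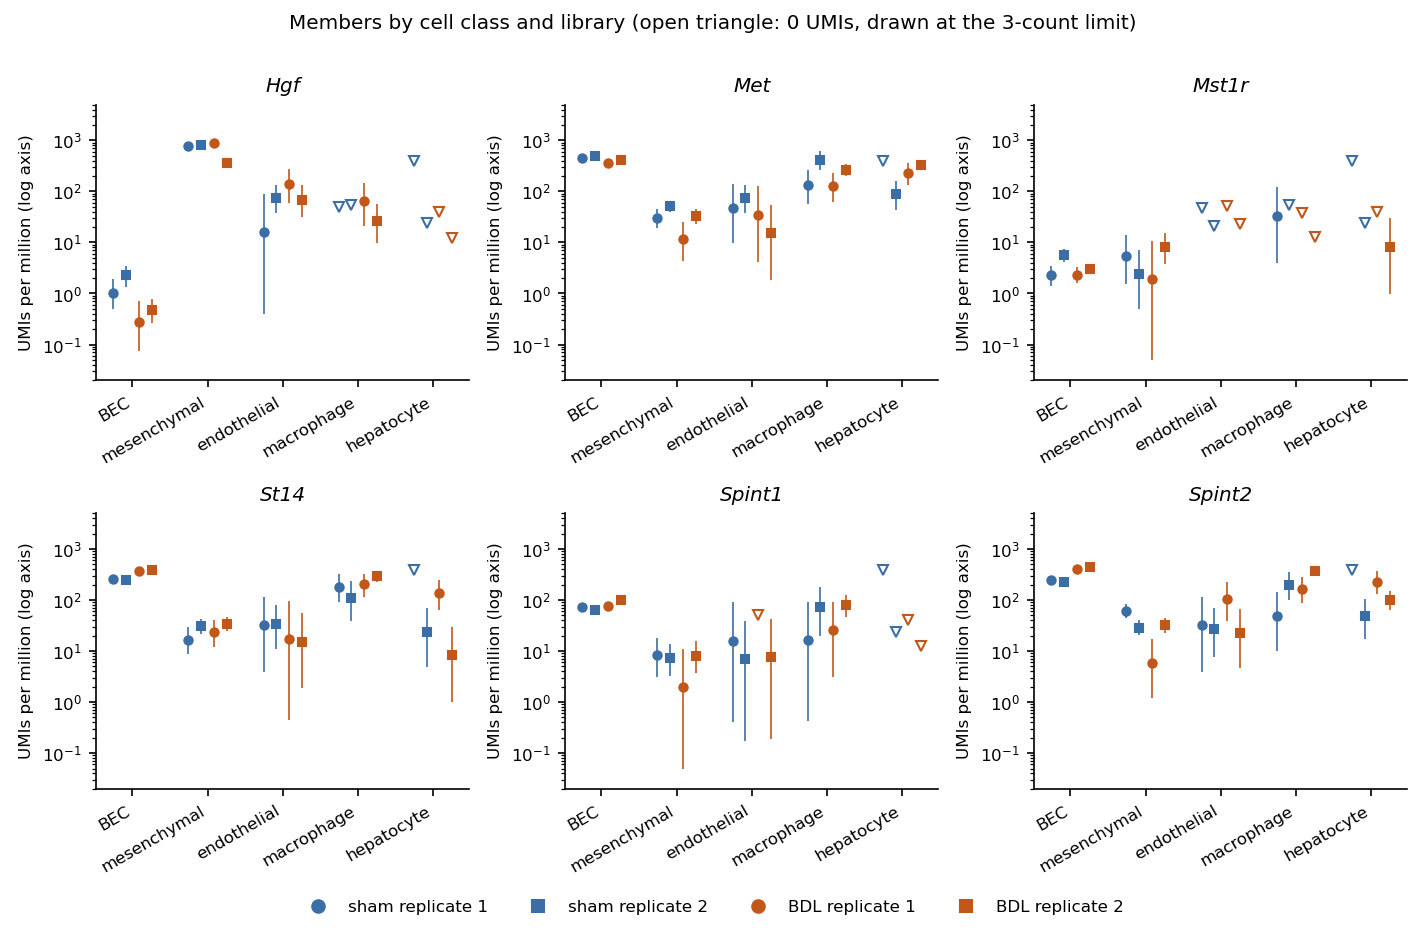
Level of each of the 6 genes (CPM, log axis) in 5 cell classes, one point per library with its exact 95% Poisson interval, blue for sham and orange for BDL; open triangles mark 0 UMIs, drawn at the level of 3 counts. Hgf stands at 365 to 902 in mesenchymal-like cells and at no more than 2.26 in BEC-like cells, while Met, St14, Spint1 and Spint2 stand higher in BEC-like than in mesenchymal-like cells in all 4 libraries.

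Over the whole mesenchymal-like class, Hgf did not pass the test between BDL and sham. Its log2 fold change was -0.36 (SE 0.37, edgeR adjusted p = 0.633), the groups overlapped, and the 2 BDL libraries lay farther apart than BDL and sham did on average. None of the 4 genes tested in this class (Hgf, Met, St14 and Spint2) was called by edgeR, where 6.93% of all 8778 genes tested were, 2.65% higher and 4.27% lower. Of the 4, 0 had an unadjusted p under 0.05, and 0 were called by DESeq2. The BDL and sham libraries overlapped for all 4, where 52.6% of genes did not overlap. Leaving out BDL replicate 1 gave a fall of Hgf that passed the threshold, -1.18 on the log2 scale (edgeR adjusted p = 0.00736), and leaving out BDL replicate 2 gave 0.19 (adjusted p = 0.812). Without sham replicate 2 it was -0.26 (adjusted p = 0.825). The 2 libraries whose names match differed by 0.23.

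The class was held by different clusters in the 2 groups, which have to be named beside these values. It had 3 clusters. A stellate-like cluster met all 8 stellate markers (among them Reln, Lrat and Colec11) and had Hgf among its 10 leading genes, although Hgf had no part in the clustering. A collagen-high cluster met 7 of 7 collagen-high markers (among them Col1a1, Lox and Postn), 6 of 11 portal fibroblast markers, 3 of 6 smooth muscle markers (Myocd, Actg2 and Acta2) and no stellate marker. The last cluster, led by C7 and Igfbp3, stayed without a name and held 1 and 2 cells in the BDL libraries. The stellate-like cluster held 56.4%, 74.6%, 38.0% and 15.9% of mesenchymal-like cells and 87.2%, 93.1%, 78.0% and 33.4% of the class's Hgf UMIs. The collagen-high cluster held 9.57%, 4.08%, 60.6% and 82.6% of the cells. Collagen genes help define these clusters and differ between the groups, so the shares describe what the class consisted of in each library and are not a test of abundance.

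Within the stellate-like cluster, Hgf stood at 1391 (1270 to 1521), 1182 (1108 to 1260), 2451 (2205 to 2717) and 1007 (844 to 1191) CPM. BDL replicate 1 lay above both sham libraries and BDL replicate 2 below them, from 27 and 21 cells. The log2 fold change was 0.37 (edgeR adjusted p = 0.709), where 1.39% of genes were called. A total of 60 of the 463 mesenchymal Hgf UMIs of BDL replicate 1 came from 1 stellate-like cell, and without that cell the class level there was 794 CPM. The cluster led by C7 and Igfbp3 had 245 and 211 CPM in the sham libraries.

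In the collagen-high cluster, the level of Hgf was 93.9, 55.9, 279 and 278 CPM, from 13, 9, 102 and 267 UMIs, with only 18 and 17 cells on the sham side. The groups did not overlap, and the log2 fold change of 1.73 passed the threshold (edgeR adjusted p = 0.0401, with 4.57% of genes called). Its size hardly moved without BDL replicate 1 (1.72) or BDL replicate 2 (1.84), but it missed the threshold in both. It kept the call without sham replicate 1 (2.06, adjusted p = 0.0102) and without sham replicate 2 (1.52, adjusted p = 0.0131). The adjusted p was 0.643 without BDL replicate 1 (a fit with 0 of 3712 genes called and 258 at an unadjusted p under 0.05) and 0.0535 without BDL replicate 2. The sham cells of this cluster were largely of another kind. In a finer clustering they fell as 16 and 12 cells into a cluster led by Slit3, Cilp and Postn, where Hgf was at 24.1 and 23.7 CPM, while 43 and 105 of the BDL cells fell into one led by Fbn2, Col6a3 and Tnc. That cluster kept 2 and 5 sham cells, with Hgf at 724 and 175 CPM from 10 and 6 UMIs, against 279 and 281 CPM in BDL. Within that finer cluster the 2 sham values lay on both sides of the BDL values, and Hgf was not tested there.

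**Figure D2:**
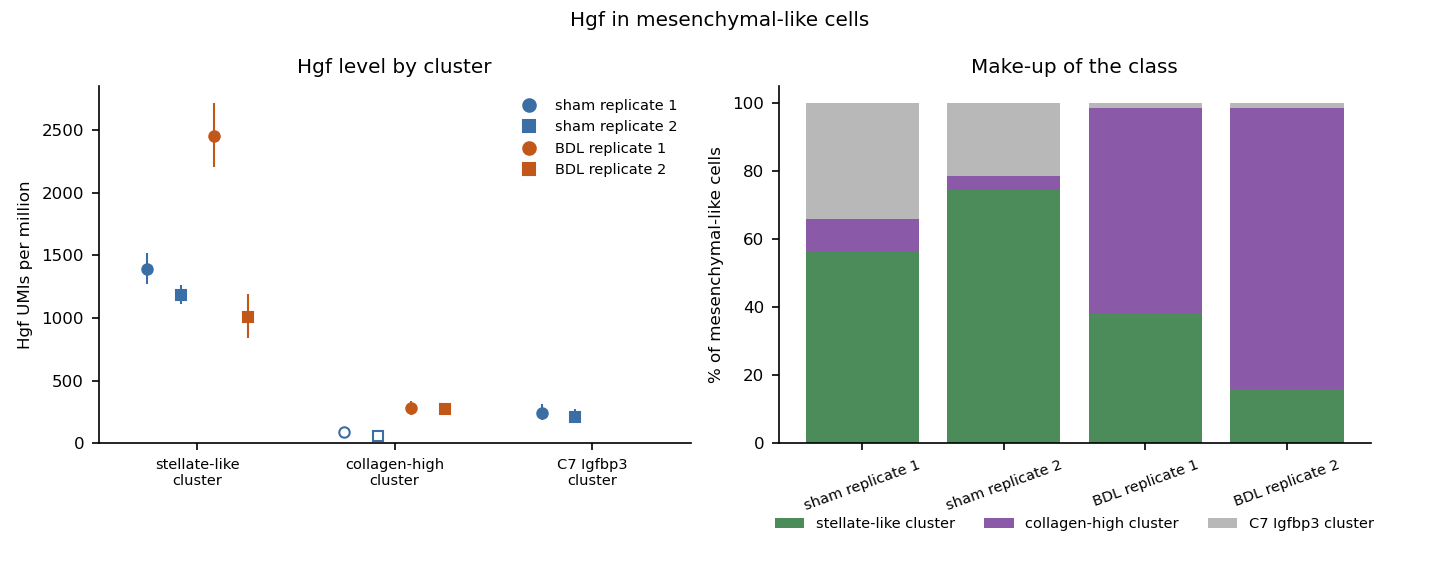
Left, Hgf level (CPM) in the 3 mesenchymal-like clusters, per library with exact 95% Poisson intervals; open points are libraries with fewer than 20 cells in the cluster, and those with fewer than 10 are not drawn. Right, the percent of mesenchymal-like cells in each cluster; the stellate-like cluster, where Hgf is highest, holds 56.4% and 74.6% of them in sham and 38.0% and 15.9% in BDL.

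Met, the HGF receptor, was found on the biliary side. In BEC-like cells its level was 446, 481, 362 and 410 CPM, and in mesenchymal-like cells 30.5, 51.9, 11.7 and 32.5 CPM, which is 6.83%, 10.8%, 3.23% and 7.93% of the BEC-like level. There, the summed level of the biliary markers was 11.2%, 17.3%, 10.6% and 17.2% of its BEC-like level. By this share Met lay below the biliary markers in all 4 libraries, and the part of biliary RNA in its mesenchymal-like level was not tested. Macrophage-like and hepatocyte-like cells showed more Met, at 240 and 242 CPM over all libraries, but the biliary markers in macrophage-like cells stood at 51.3% to 85.5% of their BEC-like level and in hepatocyte-like cells at 5.45% to 116%. In BDL replicate 2 the hepatocyte-like sum was 89.8%, but Krt19 was at 24.7 CPM against 611 CPM in BEC-like cells. Epcam was at 53.6 against 1033 CPM and Krt7 had 0 UMIs, so other markers carried that sum. Met stood at 81.3% of its BEC-like level there and St14 at 2.14%. The part of biliary RNA in those Met values was not tested.

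Met was lower in both BDL libraries than in both sham libraries in BEC-like cells, with group means of 464 ± 25.2 CPM (SD, n = 2) in sham and 386 ± 34.5 CPM in BDL. The difference did not pass the test, with a log2 fold change of -0.25 (SE 0.14, edgeR adjusted p = 0.222). It was -0.09 without sham replicate 2 (adjusted p = 0.768), -0.33 without BDL replicate 2 (adjusted p = 0.167) and -0.30 between the 2 libraries whose names match. Without BDL replicate 1 it was -0.13 (adjusted p = 0.55). Groups that do not overlap were common, at 68.9% of all genes tested in BEC-like cells, and 5 of the 6 genes were among them, with Mst1r the exception. The share of thinned BEC-like cells with a Met UMI was 30.4%, 33.1%, 26.3% and 30.3%, with a difference of -3.47 points (exact permutation p = 0.33).

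Mst1r, the RON receptor, was scarce. BEC-like cells had 22, 48, 34 and 97 UMIs, or 2.26, 5.71, 2.33 and 3.04 CPM, and sham replicate 2 stood above the other libraries. The log2 fold change was -0.54 (SE 0.49, edgeR adjusted p = 0.443), and it turned to 0.38 without sham replicate 2 and to 0.041 between the 2 libraries whose names match. In mesenchymal-like cells 4, 3, 1 and 9 UMIs gave 5.54, 2.40, 1.95 and 8.13 CPM, with intervals that overlapped those of BEC-like cells in every library but BDL replicate 2. No Mst1r UMI was seen in 215 endothelial-like cells, which allows up to 7.56 CPM.

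St14, which encodes matriptase, was higher after BDL in BEC-like cells. Its levels were 259 (249 to 270), 248 (238 to 259), 370 (360 to 380) and 385 (378 to 392) CPM. Sham and BDL did not overlap. Means were 254 ± 8.01 CPM (SD, n = 2) in sham and 377 ± 10.6 CPM in BDL. The log2 fold change was 0.59 (SE 0.11, edgeR adjusted p = 0.0105). Of the 6 genes, 2 were called in BEC-like cells (St14 and Spint2), both higher in BDL, beside a background in which 27.0% of 16032 genes tested were called, 14.1% higher and 12.8% lower. The call of St14 was lost without sham replicate 1 (adjusted p = 0.0908) or sham replicate 2 (adjusted p = 0.0549), at log2 fold changes of 0.56 and 0.66. It held without BDL replicate 2 (0.57, adjusted p = 0.0101), and the 2 libraries whose names match differed by 0.51.

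Spint2, which encodes HAI-2, also rose after BDL. BEC-like cells had 243, 229, 402 and 451 CPM, with every BDL library above every sham library. Means were 236 ± 9.74 CPM (SD, n = 2) in sham and 427 ± 34.8 CPM in BDL, and the log2 fold change was 0.88 (SE 0.12, edgeR adjusted p = 0.00353). Spint2 kept its direction without any 1 library, and without sham replicate 2 and without BDL replicate 2 its log2 fold changes were 0.93 and 0.80. The 2 libraries whose names match differed by 0.73.

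Spint1, which encodes HAI-1, did not pass the test in BEC-like cells. Its level was 72.0, 62.3, 75.0 and 101 CPM, and BDL replicate 1 lay just above sham replicate 1, within their counting intervals (70.6 to 79.6 and 66.8 to 77.6). The log2 fold change was 0.42 (SE 0.16, edgeR adjusted p = 0.0974), and with no filter on low counts it was 0.55 and called (adjusted p = 0.00259). It was 0.64 without BDL replicate 1, where it was called (adjusted p = 0.00138), 0.42 without sham replicate 2, 0.19 without BDL replicate 2, and 0.0585 between the 2 libraries whose names match. Hgf in BEC-like cells, from few UMIs, had a log2 fold change of -2.03 (SE 0.62, edgeR adjusted p = 0.0534). It was called with scaling by library size alone (-2.04, adjusted p = 0.0433) and with no filter (-1.90, adjusted p = 0.0111), and not by DESeq2 (-2.09, adjusted p = 0.117). It was -1.27 without sham replicate 2 (edgeR adjusted p = 0.42), -2.50 without BDL replicate 2 (adjusted p = 0.0662) and -1.91 between the 2 libraries whose names match.

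Depth and other markers moved with the groups in these cells. The median BEC-like cell had 3301.5, 2766, 7132 and 7878 UMIs. With the sums thinned to the shallowest library, St14 stood at 0.59 (edgeR adjusted p = 0.0105) and Spint2 at 0.85 (adjusted p = 0.00333). The 13 mesenchymal markers, none at 0, summed to 356, 251, 1225 and 1494 CPM among BEC-like cells. The 11 hepatocyte markers went the other way, at 1252, 1285, 145 and 114 CPM, with Cyp2e1 at 0 in both sham libraries and Cyp2f2 at 0 in sham replicate 1. The part of either list in the St14 and Spint2 differences was not tested. The 7 collagen-high markers stood at 15.9 to 28.3 CPM in BEC-like cells, against 6534 CPM or more in mesenchymal-like cells. Of the 13 mesenchymal markers, Rgs5 was among the 10 leading genes of a BEC-like cluster in the finer clustering, almost wholly of BDL cells.

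**Figure D3:**
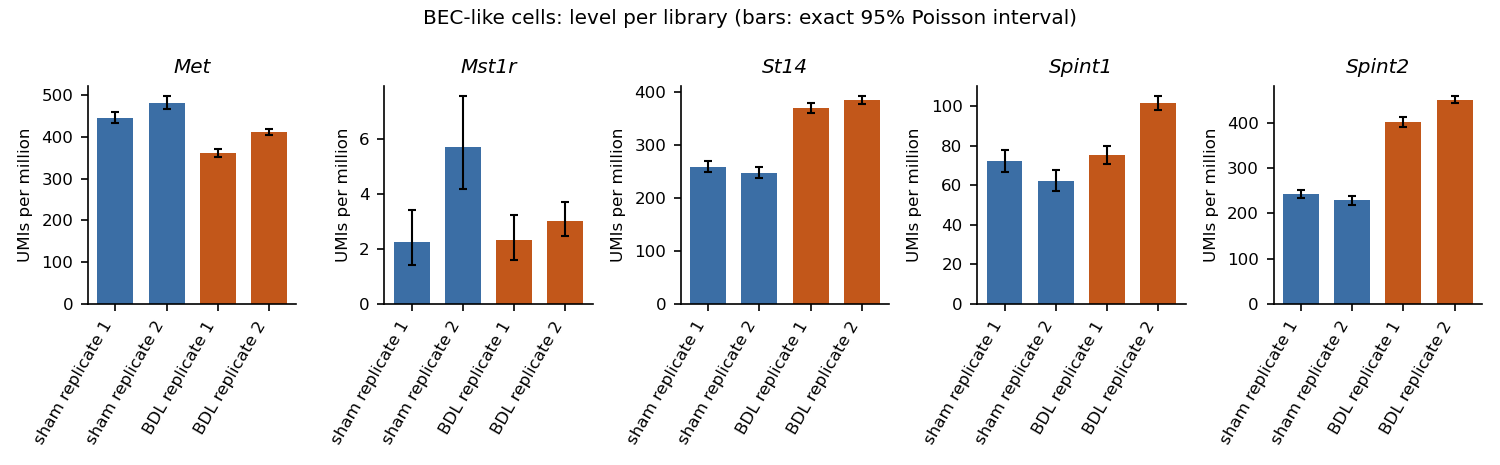
Level in BEC-like cells (CPM) of the receptors Met and Mst1r, the protease St14 and the inhibitors Spint1 and Spint2, 1 bar per library with its exact 95% Poisson interval. St14 and Spint2 are higher in both BDL libraries, Met is lower in both, and the sham and BDL libraries overlap for Mst1r.

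The share of BEC-like cells with a UMI followed the same pattern at equal depth. Among cells thinned to 1000 UMIs, St14 was seen in 20.04%, 19.4%, 31.4% and 29.6%. In mesenchymal-like cells the St14 share was 0% to 2.70%. Spint2 was seen in 21.6%, 21.0%, 31.1% and 35.0% of BEC-like cells and in 0% to 2.96% of mesenchymal-like cells. The group differences were 10.8 points for St14 and 11.8 points for Spint2, each with an exact permutation p of 0.33. Spint1 was seen in 7.04%, 6.38%, 6.88% and 9.56% of BEC-like cells, a difference of 1.51 points (exact permutation p = 0.67).

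The balance of the inhibitors and the protease was read as a log2 ratio of UMIs within each library, which does not depend on scaling between libraries. Spint2 to St14 was -0.10, -0.12, 0.12 and 0.23 in BEC-like cells, so both BDL libraries lay above both sham libraries. The difference was 0.28 (exact two-sided permutation p = 0.33). Spint1 to St14 was -1.85, -1.99, -2.30 and -1.93, and the groups overlapped (difference -0.19, exact permutation p = 0.67). Both inhibitors act on the same protease, and in these values the ratio to St14 stood higher in BDL for Spint2 and did not for Spint1, while a difference between the 2 ratios was not tested.

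Each library was spread over 8 sublibraries, which share its source and so give a technical check and no further replicates. The log2 ratio of mean BDL to mean sham CPM was above 0 in 8 of 8 sublibraries for St14 (0.43 to 0.73) and for Spint2 (0.56 to 0.96), with no overlap of the groups in any. For Spint1 it was above 0 in 8 (0.03 to 0.76) with no overlap in 5. For Met it was below 0 in all 8 (-0.55 to -0.17), also with no overlap in 5. Mst1r lay on both sides of 0 (-1.32 to 0.84), with no overlap in 2. The share of all genes without overlap was not taken per sublibrary. Hgf in mesenchymal-like cells went from -2.99 to 0.24, below 0 in 7 of 8 and with no overlap in 3, all lower in BDL. The lowest value was in sublibrary 1 (1094 CPM in sham, 138 CPM in BDL).

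**Figure D4:**
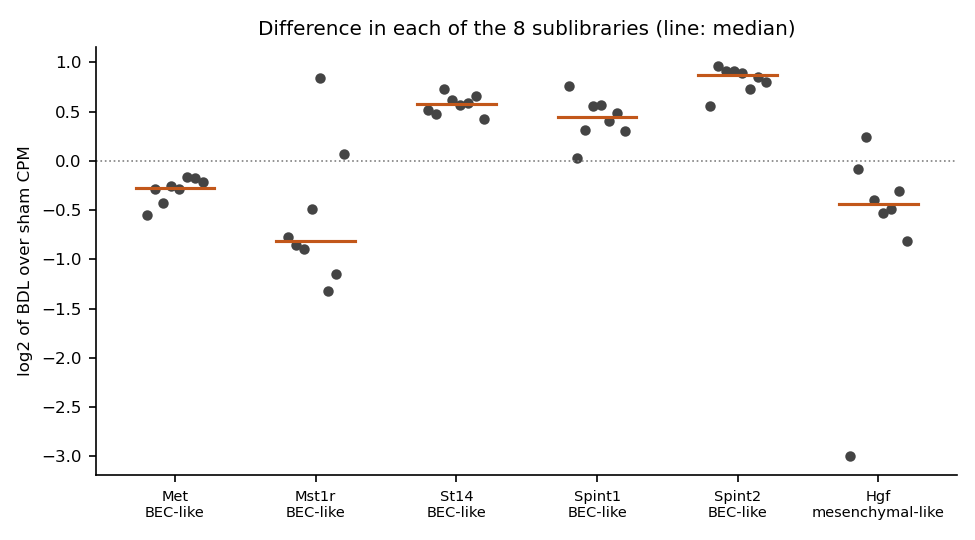
The log2 ratio of mean BDL to mean sham CPM in each of the 8 sublibraries (points) with their median (line), in BEC-like cells for 5 genes and in mesenchymal-like cells for Hgf; sublibraries share the same 4 libraries. St14 and Spint2 lie above 0 and Met below 0 in all 8, while Mst1r lies above 0 in 2 and Hgf in 1 of the 8.

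The protease and its inhibitors were low on the mesenchymal side. St14 was at 16.6, 30.3, 23.4 and 34.3 CPM there, or 6.41%, 12.2%, 6.32% and 8.92% of the BEC-like level. Spint1 was at 8.31, 7.19, 1.95 and 8.13 CPM from 6, 9, 1 and 9 UMIs. These shares lay below those of the summed biliary markers given above, except for Spint1 in sham replicate 1, at 11.5% against 11.2%. Spint2 was at 60.9, 28.7, 5.84 and 32.5 CPM, or 25.1%, 12.5%, 1.45% and 7.21% of the BEC-like level, and lay above the share of the biliary markers only in sham replicate 1.

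The BDL effect on Spint2 differed between the 2 classes in the test of the difference itself. BEC-like minus mesenchymal-like, it was 1.89 on the log2 scale (SE 0.44, edgeR adjusted p = 0.0095), the only 1 of the 6 genes to pass, where 6.31% of 15305 genes did (3.57% higher, 2.74% lower). In mesenchymal-like cells Spint2 had a log2 fold change of -1.01 (edgeR adjusted p = 0.314), called without BDL replicate 2 (-2.84, adjusted p = 0.0206). That side rested on 44, 36, 3 and 36 UMIs, and 22 of the 44 in sham replicate 1 came from 1 cell. The cluster led by C7 and Igfbp3, with 1 and 2 BDL cells, held 38 of those 44 (161 CPM) and 10 of the 36 in sham replicate 2 (34.6 CPM). In the stellate-like cluster Spint2 was at 17.3, 28.6, 6.79 and 37.3 CPM, and the groups overlapped. The difference was not called without sham replicate 1 (1.31, adjusted p = 0.12), with DESeq2 (2.11, adjusted p = 0.0865) or with a filter of 10 CPM (1.85, adjusted p = 0.06). It was called without sham replicate 2 (2.34, edgeR adjusted p = 0.000671), BDL replicate 1 (1.38, adjusted p = 0.0143) and BDL replicate 2 (3.67, adjusted p = 9.97e-05). For Hgf the difference was -1.32 (edgeR adjusted p = 0.157), and it was called without sham replicate 1 (-1.85, adjusted p = 0.0421) and without BDL replicate 2 (-2.60, adjusted p = 0.00638).

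Within BEC-like cells Met was found in all 11 clusters, at 218 CPM or more, and its level differed among them. It was highest in a BDL cluster led by Dmbt1 (which encodes a mucosal defence protein), Tnip3 and Duox2, at 872 and 1016 CPM. It came next in a sham cluster led by Sgcd, Tmeff2 and Car4, at 595 and 744 CPM. The lowest Met was in a sham cluster led by Fos, Ddit4l and Jun, at 250 and 218 CPM, and in a BDL cluster led by Hspb1 and Rfx2, at 244 and 220 CPM. Thus the range of Met among clusters of 1 label was wider than the gap between the group means. This also held for St14 among BDL clusters (258 to 496 CPM, group means 254 and 377 CPM). It held too for Spint2 among sham clusters (170 to 395 CPM, group means 236 and 427 CPM). For St14 and Spint2 it did not hold among clusters of the other label.

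Mst1r was high in the same pair of clusters as Met. It stood at 20.02 and 16.3 CPM in the Dmbt1 cluster and at 7.64 and 17.2 CPM in the Sgcd cluster, and at no more than 4.71 CPM in the other 9. Over 22 sums of a BEC-like cluster and a library, Met and Mst1r had a Pearson correlation of 0.69 in log2(CPM + 1). These sums share libraries, depth and the clustering, so the value is a description.

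St14 and Spint2 followed the label more closely. St14 was at 201 to 300 CPM in the 4 sham clusters and at 258 to 496 CPM in the 7 BDL clusters, lowest in the Hspb1 cluster (258 and 278 CPM) and highest in the Dmbt1 cluster (475 and 496 CPM). Spint2 was at 170 to 217 CPM in 3 sham clusters, at 395 and 355 CPM in the Sgcd cluster, and at 308 to 490 CPM in the BDL clusters. In the Sgcd cluster, labelled mostly sham, both Spint2 and St14 (271 and 300 CPM) thus lay within the range of the BDL clusters. In the cycling cluster, led by Mki67 and Cenpf, St14 was at 349 and 357 CPM and Spint2 at 426 and 488 CPM. Without it, St14 and Spint2 kept log2 fold changes of 0.60 and 0.87.

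**Figure D5:**
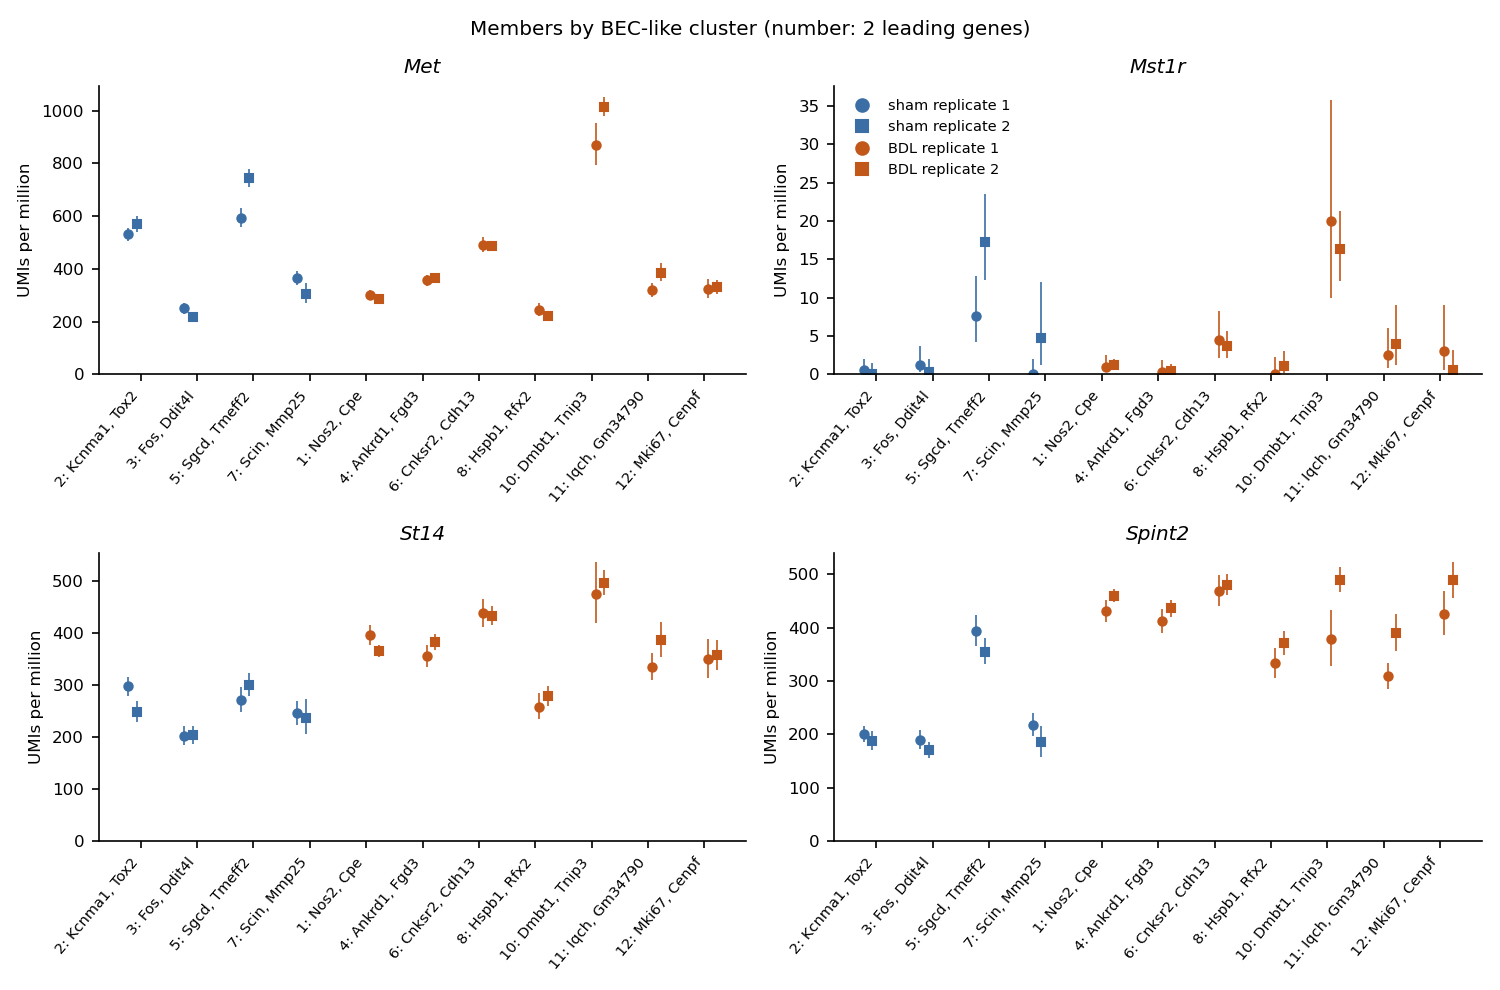
Levels of Met, Mst1r, St14 and Spint2 (CPM) in the BEC-like clusters, sham clusters at left and BDL clusters at right, each named by its number and 2 leading genes; points are libraries with at least 20 cells in the cluster, with exact 95% Poisson intervals. Met and Mst1r are highest in the Dmbt1 and Sgcd clusters, 1 of each label.

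The genes whose pattern was most like each of the 6 were listed by a fixed rule, as the highest Pearson correlations of log2(CPM + 1). For Hgf, over 19 clusters of all classes, these were Ifi203 (0.98), Ifi204 (0.96) and Cygb (0.94), the last a known stellate cell marker. Over the 22 BEC-like sums, Met was most like Mcu (0.93), Gm14636 (0.92) and Frmd4b (0.91), and Mst1r most like Mapre2 (0.90), Ugt1a10 (0.90) and Tmc5 (0.90). St14 was most like Atxn1 (0.96), Egfr (0.95), the receptor for epidermal growth factor, and Plat (0.94), tissue plasminogen activator. Spint2 was most like Itgb6 (0.97), Fam167a (0.97) and Arpc1b (0.97), and Spint1 like Arrdc1 (0.91), Ltbp3 (0.90) and Hipk1 (0.88). Among the 6 genes, St14 and Spint2 had a correlation of 0.83 and Spint1 and Spint2 one of 0.70. The 22 sums hold sham and BDL clusters together, so these correlations also carry the difference between the labels and are descriptions.

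Other genes of the pathway were taken from 8 lists of 84 genes, of which 76 were tested in BEC-like cells. There 26 were called higher and 11 lower, with a median log2 fold change of 0.21 beside -0.03 over all genes tested. All genes had the shares given above, 14.1% higher and 12.8% lower; the counts describe the lists and do not test them.

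Among ligand partners and activators, 2 of 7 tested were called higher and 1 lower. Plau, urokinase, which can cut the HGF precursor, rose from 2.78 and 3.33 CPM in sham to 25.4 and 36.8 CPM in BDL (log2 fold change 3.38, edgeR adjusted p = 0.000659). Plat rose from 50.01 and 83.2 CPM to 539 and 614 CPM (3.12, adjusted p = 0.000989). Hgfac, the HGF activator protease, fell from 6.79 and 7.25 CPM to 3.01 and 3.76 CPM (-1.02, adjusted p = 0.0298), a call lost without either sham library, with DESeq2 (adjusted p = 0.0758) and with thinned sums (edgeR adjusted p = 0.0598). Mst1, the RON ligand, was too low to be tested.

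Among serine proteases related to matriptase, 3 of 7 were higher and 2 lower. Prss22 rose by 2.57 on the log2 scale, while Tmprss2 (-0.91) and Tmprss6 (-0.997), both membrane-bound proteases, fell. Of 6 protease inhibitors 3 were higher and none lower. Serpine2, which encodes a serine protease inhibitor, went from 21.1 and 14.1 CPM in sham to 55.6 and 57.3 CPM in BDL (1.71, edgeR adjusted p = 0.00121), and Wfdc2 had a log2 fold change of 0.99 (adjusted p = 0.0288). Of the 4 matriptase substrates 3 rose, namely Plau, already given, the transmembrane protein gene Cdcp1 (1.46) and F2rl1 (1.14), which encodes the protease-activated receptor PAR2. Prss8, prostasin, was not called (-0.42, edgeR adjusted p = 0.18).

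Of 11 co-receptors and shedding enzymes 6 were higher and none lower. Cd44, whose splice forms can present HGF to MET, rose from 312 and 327 CPM to 1777 and 2138 CPM (2.63, edgeR adjusted p = 0.000424), and the neuropilins Nrp1 (2.22) and Nrp2 (2.77) rose too. Of 18 adaptors and effectors 5 were higher and 2 lower, with Ptk2 (0.67) and Rac1 (0.57) higher and Stat3 (-0.85) lower. Of 12 attenuators 3 were higher and 2 lower. The cytokine signalling inhibitors Socs3 (-2.36) and Socs1 (-1.40) fell, and Muc20 rose (1.80). Of 14 genes of ERK feedback and its targets 2 were higher and 4 lower, with Egr1 (-1.49) and Etv5 (-0.92) lower and Phlda1 (0.82) higher. Of the 23 genes that the naming rule took as called in BEC-like cells, 13 remained called without any 1 library. The calls of Hgfac, Ptk2, Socs1, Rac1 and Muc20 were lost without either sham library, the last 2 also without BDL replicate 2, and those of Prss22, Tmprss6, Wfdc2, Phlda1 and Etv5 without sham replicate 1.

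In mesenchymal-like cells 63 of the 84 genes were tested, with 4 higher and 2 lower, beside 2.65% higher and 4.27% lower of all genes tested there, and a median of 0.15 beside 0.01 over all genes. Serpine2 rose from 168 and 88.6 CPM to 487 and 550 CPM (2.01, edgeR adjusted p = 0.00461). The syndecan gene Sdc1 (1.86), whose product binds HGF, and Cd44 (1.44) were higher. Gab1 (-1.20), the main docking protein of MET, and the phosphatase gene Ptprk (-1.23) were lower. Serpine2 remained called without any 1 library, and the others were lost without sham replicate 1 (Sdc1, Gab1 and Ptprk), sham replicate 2 (Cd44) or BDL replicate 2 (Gab1 and Ptprk). Different clusters held this class in the 2 groups, as given above, and within the collagen-high cluster alone Cd44 (-0.51), Gab1 (0.0602) and Ptprk (1.001) had log2 fold changes of the opposite sign. Serpine2 kept its direction in both, at 0.89 in the stellate-like cluster, where it was not called, and 2.32 in the collagen-high cluster. Sdc1 was not called in the collagen-high cluster (0.40, edgeR adjusted p = 0.6), nor were Cd44, Gab1 and Ptprk in the stellate-like cluster (1.57, -0.93 and -0.92).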

How the data were processed

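Single cells of 4 mouse liver libraries were measured by split-pool barcoding with random hexamer and oligo(dT) primers, per the labels' protocols. The deposited matrices hold UMI counts per gene and cell, not normalized, and the deposited cell tables give counts of UMIs, reads and genes per cell, per the file headers. The build is GRCm39, per the submitters' processing notes. The aligner and the cell threshold are not given in the sources used here. The 6 genes and all lists were chosen with earlier results of these data known.

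Cells under 500 UMIs (7) or over 20% mitochondrial UMIs (10) were left out. Scrublet called 11 doublets, too few to have worked, and they were removed. A total of 12183 cells were clustered on 2000 variable genes, without 90 member and pathway genes (scanpy 1.11.5, leidenalg 0.10.2, 30 components, 20 neighbours, resolution 1). A cluster of at least 20 cells took a class name with at least 3 markers and 50% of the list, each in 5% of its cells and over 2-fold above other cells. This scoring rule was set after the data were seen. Names rebuilt in this way may differ from the study's. The macrophage-like cluster also met 3 B-cell markers.

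Counts were summed per library and class and tested with edgeR 4.0.16 (R 4.3.3): TMM, filterByExpr, quasi-likelihood F test, two-sided, Benjamini-Hochberg over all genes, threshold 0.05. The test of the difference between classes had library as a block. Levels are plain CPM. In a simulation that gave 200 genes a log2 change of 2, the BEC-like fit recovered 190 with 9 false calls among 15372 genes, the mesenchymal-like fit 167 with 5 among 8387 and the fit of the difference 113 with 6 among 14713. From each of 8 pathway lists, up to 3 genes (mesenchymal-like: 2) with the smallest adjusted p under 0.05 were named; some genes of the lists are not reported here. Likeness used genes with a mean of at least 20 CPM. Alternatives were DESeq2 1.42.0, other scalings, filters, resolutions, thinning and each library left out. After the data were seen, the use of single clusters, leaving out the top 5% of doublet scores, library size alone, removal of the cycling cluster and the 2 libraries with matching names were added, as was leaving out each library within the collagen-high cluster.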

Additional observations from a re-analysis of the deposited data

Results flagged for a closer look

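The effect of BDL on Spint2 differed between BEC-like and mesenchymal-like cells by 1.89 on the log2 scale in a test of that difference (SE 0.44, edgeR adjusted p = 0.0095). The BEC-like level was 243, 229, 402 and 451 CPM and the mesenchymal-like level 60.9, 28.7, 5.84 and 32.5 CPM, in sham replicates 1 and 2 and BDL replicates 1 and 2. Different clusters held the mesenchymal-like class in the groups: 38 of its 44 Spint2 UMIs in sham replicate 1 lay in the cluster led by C7 and Igfbp3 (161 CPM), which held 1 and 2 BDL cells, while the stellate-like cluster was at 17.3, 28.6, 6.79 and 37.3 CPM. Over the alternatives the difference kept its direction, from 1.31 to 3.67, and the adjusted p went from 2.31e-07 to 0.12. The mesenchymal-like cell of sham replicate 1 with the most Spint2 had 22 of the 44 UMIs there, 7 UMIs of biliary markers, and a doublet score above that of 26.8% of the library's cells. The cell with the most Spint2 in BDL replicate 2 had 14 of 36 UMIs, 271 UMIs of biliary markers and a doublet score above that of 99.9% of cells. With the 5% of cells of highest doublet score left out, the difference was 2.38.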

How the results depend on the processing

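In BEC-like cells St14 and Spint2 kept their direction under every alternative run, with log2 fold changes of 0.51 to 0.72 and 0.73 to 1.01. The count of genes called there went from 1117 (without sham replicate 1) to 6100 (without BDL replicate 1), with 1533 without sham replicate 2, against 4324. In mesenchymal-like cells the 608 called became 1128 with no filter, 372 with DESeq2, 59 in the stellate-like and 197 in the collagen-high cluster alone, and 163 to 1230 with 1 library left out. The 966 genes called for the difference between classes became 420 with DESeq2 and 500 to 1074 with 1 library left out. Of the calls in BEC-like cells 52.4% were higher, against 62.6% with no filter, and of those in mesenchymal-like cells 38.3%, against 59.3% in the stellate-like cluster alone. The cause of these moves was not tested, and the genes and samples entering the fits differed between some of these settings.

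Directions turned as follows. Without thinning, the difference in share of cells was 19.7 points for Met, 0.72 for Mst1r and 7.79 for Hgf, and for Mst1r it was 0.19 without sham replicate 2 and 0.013 without BDL replicate 2. Mst1r in BEC-like cells was 0.38 without sham replicate 2 and 0.041 between the 2 libraries with matching names. Hgf in mesenchymal-like cells was 0.19 without BDL replicate 2, 0.37 and 1.73 in the stellate-like and collagen-high clusters alone and 0.23 between the matching libraries. There Met was 0.43 without the highest doublet scores, and St14 -0.12 without sham replicate 1 and -0.07 without BDL replicate 2. In the collagen-high cluster alone Cd44 was -0.51, Gab1 0.0602 and Ptprk 1.001. The difference between classes was -0.71 for Met without the highest doublet scores, 0.24 and 0.12 for Mst1r without sham replicate 2 and without BDL replicate 2, and -0.29 for St14 without sham replicate 2. With 1 library left out, the ranges were -0.211 to 0.193 points for the Mst1r share, -1.12 to 0.38 for Mst1r in BEC-like cells, -1.18 to 0.19 for Hgf and -0.12 to 0.84 for St14 in mesenchymal-like cells, and, for the difference between classes, -2.32 to 0.24 for Mst1r and -0.29 to 0.65 for St14.

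No paired analysis was possible because the replicate numbers here only name libraries, in sample order, and no label ties a sham library to a BDL library. With 2 libraries per group, 71 to 417 mesenchymal-like cells per library and group names that conflict for 2 libraries, small differences in Hgf could not be resolved, and intervals and floors cover counting error only.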
